A study of Drosophila melanogaster with 2 samples.

Results

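The regions described here are 457 peaks of tagged disco-r, a zinc-finger protein of the fruit fly, that lay between the start sites of 2 genes transcribed away from each other. They are part of 2334 peaks that passed a threshold on irreproducible discovery rate (IDR), which scores the agreement of ranks between replicates, of which they make up 19.6% (95% Wilson interval 18.0 to 21.2). They were selected on 2 properties, passing IDR and position. The summit had to lie between a protein-coding transcription start site (TSS) on the minus strand to its left and one on the plus strand to its right, at most 1000 bp apart and with at least 1 of them within 500 bp. They are set against 1004 comparison regions, the candidates of the authors' pooled list that met the same rule on position but neither passed IDR nor overlapped a peak. Another 70 divergent candidates overlapped a peak without being one and are in neither set, so the divergent candidates numbered 1531. Signal is the peak caller's value for a region. Every IDR peak had a pooled signal of at least 72.46, and no comparison region had more than 72.43. Passing IDR thus came down to a cut on pooled signal. Signal is therefore given as a description, with no test, and so is the position rule itself.

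The chromatin came from whole embryos of mixed sex, 0 to 24 h old, of 1 transgenic line expressing disco-r with an eGFP tag, and the tagged protein was precipitated with an antibody against GFP. One label names disco, the paralog of disco-r, as the gene with the C-terminal GFP. There was 1 group with 2 biological replicates, numbered 2 and 3, and no contrast between conditions. Chromatin was sonicated to 200 to 800 bp, so a summit marks a position less finely than a single base. Each replicate gave 30000 candidate regions and the pooled list 29347. Depth is unknown, as read numbers are not given here, and no control library was analysed here. Whole embryos hold many cell types, so fewer cells with the protein bound and less protein bound per cell cannot be told apart.

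In a divergent promoter a pair of genes on opposite strands is transcribed outward from a shared stretch of DNA, usually a nucleosome-poor region with a core promoter at each end. Such head-to-head pairs are frequent in the compact fly genome, and many of them hold housekeeping genes, expressed in most cells. Housekeeping promoters of the fly often carry the DNA replication-related element (DRE), bound by Dref, or sites of the insulator protein BEAF-32, of M1BP or of further Ohler motifs, whereas the TATA box and GAGA repeats are typical of regulated promoters. The proteins disco-r and disco are best known for patterning the embryonic head and the leg primordia.

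The stretches of DNA that carried the strongest signal are shown first, because the later results concern their length, the place of the summit in them and the words they hold. Each is the whole sequence between the 2 TSSs, for the 8 strongest members with a gap of 40 to 300 bp outside annotated untranslated regions, read 5′ to 3′ on the plus strand of the Release 6 (dm6) genome. Capitals mark matches, on either strand, to the motifs searched, apart from the short words for the initiator and for poly(T), which were left in lower case.
Art3/mRpS10 (chr3R:15229409-15229664): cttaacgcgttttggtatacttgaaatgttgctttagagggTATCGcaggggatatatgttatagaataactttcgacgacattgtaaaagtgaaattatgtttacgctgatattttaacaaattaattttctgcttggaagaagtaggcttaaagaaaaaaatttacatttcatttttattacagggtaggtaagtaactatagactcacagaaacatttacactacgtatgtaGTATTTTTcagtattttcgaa
Tcs5/CHMP2B (chr3L:5139396-5139618): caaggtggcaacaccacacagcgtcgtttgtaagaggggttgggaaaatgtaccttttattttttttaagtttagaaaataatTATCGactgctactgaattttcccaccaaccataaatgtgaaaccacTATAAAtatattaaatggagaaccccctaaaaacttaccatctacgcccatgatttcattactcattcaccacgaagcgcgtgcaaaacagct
Atat/Shc (chr3L:9426759-9427009): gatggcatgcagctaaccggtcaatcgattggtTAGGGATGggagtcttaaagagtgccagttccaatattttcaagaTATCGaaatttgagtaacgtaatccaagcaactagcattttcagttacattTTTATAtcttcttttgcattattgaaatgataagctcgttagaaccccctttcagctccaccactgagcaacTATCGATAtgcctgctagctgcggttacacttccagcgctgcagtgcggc
RpS27/Nup37 (chr3R:25247515-25247657): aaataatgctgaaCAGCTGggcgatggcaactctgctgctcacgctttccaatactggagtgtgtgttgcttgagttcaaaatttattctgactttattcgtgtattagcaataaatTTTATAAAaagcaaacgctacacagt
Bdp1/CG6565 (chr2L:13373891-13374018): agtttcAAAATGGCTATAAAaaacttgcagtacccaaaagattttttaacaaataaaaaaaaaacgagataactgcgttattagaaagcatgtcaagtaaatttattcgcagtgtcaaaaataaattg
Mkk4/SLIRP2 (chr3R:8650797-8651083): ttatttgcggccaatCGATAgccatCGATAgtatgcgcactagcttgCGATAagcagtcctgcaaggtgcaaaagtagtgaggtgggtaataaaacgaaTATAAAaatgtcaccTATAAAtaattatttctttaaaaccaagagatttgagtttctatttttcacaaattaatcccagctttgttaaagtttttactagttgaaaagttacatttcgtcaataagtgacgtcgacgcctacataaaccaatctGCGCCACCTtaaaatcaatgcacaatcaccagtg
Mnat9/CG1792 (chr3R:31616161-31616302): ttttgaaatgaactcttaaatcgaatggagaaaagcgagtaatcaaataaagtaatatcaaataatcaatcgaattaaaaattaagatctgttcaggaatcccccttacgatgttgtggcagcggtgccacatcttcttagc
CG7601/CIA30 (chr3R:29736746-29736964): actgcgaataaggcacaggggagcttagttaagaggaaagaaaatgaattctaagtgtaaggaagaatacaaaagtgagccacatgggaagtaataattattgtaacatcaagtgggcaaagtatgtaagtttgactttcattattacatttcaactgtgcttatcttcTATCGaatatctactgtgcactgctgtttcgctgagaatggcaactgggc

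Among these 8 sequences, that of Atat/Shc held a full DRE together with an Ohler motif 7, those of Art3/mRpS10, Tcs5/CHMP2B and CG7601/CIA30 held the shorter BEAF-32 word, and that of Mkk4/SLIRP2 held it 3 times beside a CTCF core. The sequence of RpS27/Nup37 held the E-box and, on both strands, an overlapping TATA box, and that of Bdp1/CG6565 a TATA box next to a word of the Polycomb recruiter Pho, while the sequence of Mnat9/CG1792 held no match at all. No single word was common to all 8. The 2 comparison regions with the lowest pooled signal under the same conditions, 20.8 at Cf2/CG3008 and 21.1 at cyr/CG2120, are shown for contrast, and both held the BEAF-32 word.
Cf2/CG3008 (chr2L:4883108-4883297): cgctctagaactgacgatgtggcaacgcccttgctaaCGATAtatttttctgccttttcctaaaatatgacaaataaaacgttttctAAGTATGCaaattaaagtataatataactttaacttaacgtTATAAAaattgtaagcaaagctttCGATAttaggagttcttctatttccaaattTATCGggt
cyr/CG2120 (chrX:8135714-8135823): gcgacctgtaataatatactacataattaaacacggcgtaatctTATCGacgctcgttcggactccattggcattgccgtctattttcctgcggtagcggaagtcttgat

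The strongest members lay at gene pairs of varied function, and both replicates gave them high values. The pair Ugalt/eIF2Bbeta, a UDP-galactose transporter gene beside a translation initiation factor gene, held the strongest member (X, summit 2703891), with a pooled signal of 884 and with 419 in replicate 2 and 461 in replicate 3. The summit lay 39 bp from the TSS of Ugalt and 680 bp from that of eIF2Bbeta. Next came Chro/Ssl1, at 769.8 in the pooled list, 393 in replicate 2 and 376 in replicate 3. Chro encodes a chromodomain protein and Ssl1 a subunit of the transcription factor TFIIH. This summit lay 126 bp from Chro and 195 bp from Ssl1. Both replicates put these members near the top of their lists, at rank 5 and rank 3 for Ugalt/eIF2Bbeta and at rank 7 and rank 13 for Chro/Ssl1. The members named here were picked on pooled signal, which contains both replicates. High ranks in each are thus largely set by that choice.

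Genes of mitochondrial ribosomal proteins stood beside 3 of the 6 strongest members. The member between mRpS10 and the arginine methyltransferase gene Art3 had a pooled signal of 768, with 376 in replicate 2 and 391 in replicate 3. The member between mRpL41 and CG8079 had 765, with 347 in replicate 2 and 414 in replicate 3. The member between mRpS23 and CenG1A, which encodes an Arf GTPase-activating protein, had 725, with 342 in replicate 2 and 375 in replicate 3. The remaining one of the 6 lay between PNPase, an RNA-degrading enzyme of mitochondria, and Gprk2, the gene of a G protein-coupled receptor kinase. It had 728 in the pooled list, 336 in replicate 2 and 396 in replicate 3. All of them stood far above the members' median of 107.

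Members 7 to 20 in the order of pooled signal ran down to 356 and again mixed housekeeping and signalling genes. They included Pdrg1/Pal1 (562) and Tcs5/CHMP2B (555), a tRNA-modification kinase gene beside a gene of the membrane-remodelling ESCRT-III complex. Atat/Shc (479.8) pairs a tubulin acetyltransferase gene with an adaptor gene of receptor tyrosine kinases. RpS27/Nup37 (447) pairs a ribosomal protein with a nuclear pore protein. Bdp1/CG6565 (439), with a subunit of the RNA polymerase III factor TFIIIB, was followed by CG8372/CG8360 (431), CG5757/CG5098 (424) and Mkk4/SLIRP2 (415), in which Mkk4 encodes a kinase of the JNK pathway. Ripalpha/RpL7 (386), Stt3A/bves (377), with a subunit of oligosaccharyltransferase, Mnat9/CG1792 (372) and CG11309/CG7632 (371) came next. At Fer1HCH/Fer2LCH (361) the heavy-chain and light-chain genes of ferritin, the iron-storage protein, share 1 gap, and the summit lay 351 bp from the one and 301 bp from the other. The last of the 20 was CG7601/CIA30 (356), with an assembly factor of respiratory complex I.

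Pooled signal parted members from comparison regions, at rank 2321 of the pooled list for the weakest member and rank 2336 for the strongest comparison region. The cut itself fixed this order, so nothing is read from it. The 5 weakest members were ATPsynF/CG3548 (73.3), CG46280/l(3)87Df (73.3), 140up/Polr2B (73.0), Su(var)2-HP2/Sec61beta (73.0) and Spn88Eb/Mau2 (72.7). Among the 5 strongest comparison regions were CG5715/crb (72.4), E(z)/Cnep1r2 (72.3) and CG2921/GlcT (72.1). Polr2B encodes the second-largest subunit of RNA polymerase II, crb an apical membrane protein and E(z) the histone methyltransferase of Polycomb repression. Of all pooled candidates, 7.95% were IDR peaks, and of the divergent candidates 29.9% (27.6 to 32.2). That share was 11.8% at other promoters, where a summit lay within 500 bp of a TSS without meeting the rule, and 5.23% elsewhere. Since passing IDR is part of the choice of members, nothing is read from these shares.

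The replicates ranked the members in similar but not identical order. A candidate of each replicate overlapped 455 of the 457 members by at least 50% of the member. Members had a median signal of 55.1 in replicate 2 and 53.9 in replicate 3, against 22.9 in replicate 2 and 22.0 in replicate 3 at the comparison regions. Over the 455 members, Spearman's rho between the replicates was 0.66, against 0.15 over the 600 comparison regions found in both. The points share the selection on pooled signal, which contains both replicates. Each replicate's strongest 2334 candidates are 7.78% of its list. In replicate 2 they included 371 members (81.2%) and in replicate 3 402 (88.0%), with 326 (71.3%, 67.0 to 75.3) in both and 10 in neither. At the other promoter peaks 68.9% (65.5 to 72.1) were in both, so the intervals overlap.

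**Figure D1:**
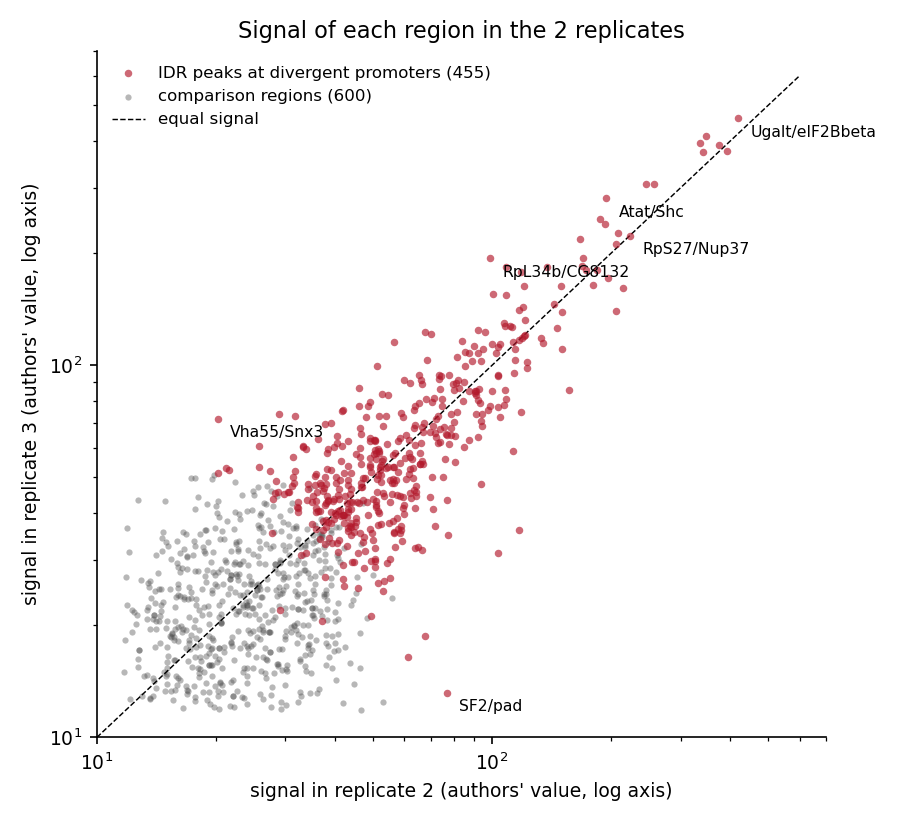
Signal in replicate 2 (horizontal) against replicate 3 (vertical), both on log axes, for the 455 IDR peaks at divergent promoters and the 600 comparison regions that both replicates list, with the line of equal signal. Members spread along the line up to 419 and 461 at Ugalt/eIF2Bbeta, and a few, such as SF2/pad and Vha55/Snx3, lie far off it.

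Over the members, the median log2 ratio of replicate 3 to replicate 2 was -0.0048, with an SD of 0.50. The members farthest above were Vha55/Snx3, with 20.2 in replicate 2 and 71.9 in replicate 3 (1.83), Pex16/Pex14 (1.36), Krn/CG7484 (1.35), trsn/Pef (1.32) and Su(var)2-HP2/Sec61beta (1.27). Vha55 encodes a subunit of the proton pump V-ATPase, and Pex16 and Pex14 both encode peroxisome assembly proteins. The members farthest below were SF2/pad, with 76.9 in replicate 2 and 13.2 in replicate 3 (-2.54), bdwf/Patr-1 (-1.90), CG1227/Dtwd2 (-1.85), RpS5a/Chchd2 (-1.73) and CG10747/Pyroxd1 (-1.70). All 10 had a pooled signal between 73.0 and 102, in the lower part of the members' range. At SF2/pad, RpS5a/Chchd2 and CG10747/Pyroxd1 the same replicate 2 candidate also overlapped a stronger member of the pair, so its value there was counted for both.

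Members lay in shorter gaps than comparison regions. The distance between the 2 TSSs had a median of 309 bp at members (quartiles 243 and 511) and 407 bp at comparison regions (273 and 625.5), a difference in medians of -98 bp (95% interval from order statistics -119 to -68.6). The excess sat in 1 class of length. Gaps of 200 to 299 bp held 152 members (33.3%, 29.1 to 37.7) and 185 comparison regions (18.4%, 16.2 to 20.9). At the far end, gaps of 750 to 1000 bp held 38 members (8.32%) and 163 comparison regions (16.2%). Read the other way, 43.7% of the candidates in gaps of 200 to 299 bp were members, 25.7% of those in gaps under 100 bp and 18.3% of those in gaps of 750 to 1000 bp. Taking the strongest candidates of replicate 2 alone, the difference in medians was -66.5 bp (-97.6 to -35.7), and with those of replicate 3 alone -90 bp. Regions are not replicates of a condition, so these intervals cover the counting of regions in these lists and not variation between embryos.

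**Figure D2:**
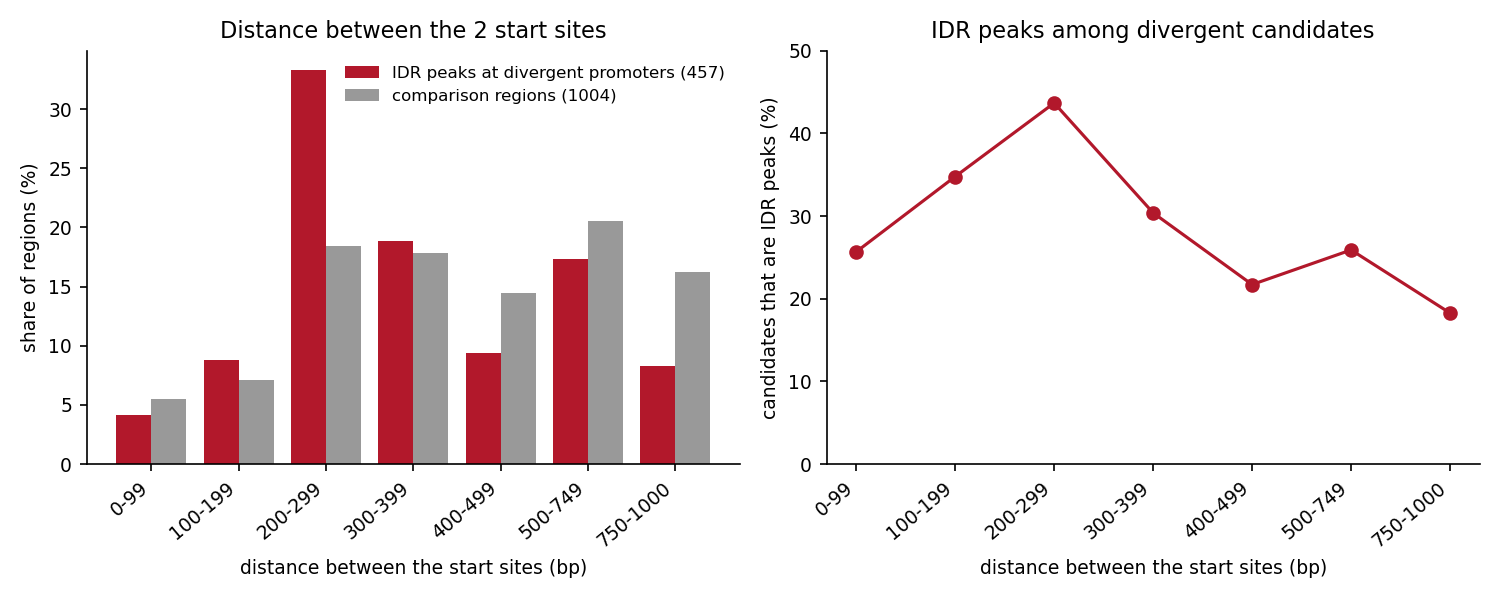
Left, share of the 457 IDR peaks at divergent promoters and of the 1004 comparison regions (%) by the distance between the 2 start sites (bp). Right, share of divergent candidates in each class that were IDR peaks (%). The class from 200 to 299 bp stands highest in both panels, at 33.3% of members and 43.7% of candidates.

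The distance from the summit to the nearer TSS is bounded by the length of the gap, since the middle of the gap is the farthest point. Its rise with gap length is thus partly fixed by geometry and is given as a description. At members the median distance was 18 bp in gaps under 100 bp, 86 bp in gaps of 200 to 299 bp and 135 bp in gaps of 500 to 749 bp. At comparison regions it was 16, 68 and 108 bp in the same classes. The shares that follow are totals over all gaps, and members lie in shorter ones. The nearer TSS was 50 to 150 bp away at 274 members (60.0%, 55.4 to 64.3), against 449 comparison regions (44.7%, 41.7 to 47.8). The median distance was similar, 89 bp at members and 78.5 bp at comparison regions, while the quartiles were closer together at members (50 and 127 bp) than at comparison regions (38 and 145 bp). Summits on a TSS itself, within 20 bp, made up 9.63% of members (7.25 to 12.7) and 13.4% of comparison regions (11.5 to 15.7). Both TSSs were within 200 bp of the summit at 202 members (44.2%, 39.7 to 48.8) and at 268 comparison regions (26.7%, 24.0 to 29.5), which long gaps do not allow. Strand made no difference that the counts could show. The TSS on the minus strand was the nearer one at 221 members and that on the plus strand at 235, with 1 at equal distance.

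The place in the gap changed with its length. Over all gaps, 43.8% of members (39.3 to 48.3) and 30.7% of comparison regions (27.9 to 33.6) lay within 50 bp of the middle, and the median distance from the middle was 60.5 bp at members and 97 bp at comparison regions. Since members lie in shorter gaps, the classes of length are more telling than these totals. When the gap is divided into 3 equal parts, the middle one held 54.6% of members and 37.3% of comparison regions in gaps of 200 to 299 bp. In gaps of 100 to 199 bp the order was the other way, with 42.5% of the 40 members and 46.5% of the 71 comparison regions. In gaps under 100 bp and in the 2 classes between 300 and 499 bp, members again had the higher share (52.6%, 39.5% and 39.5%, against 29.1%, 34.1% and 27.6%). In gaps of 500 to 749 bp it held 21.5% of members and 24.8% of comparison regions, and in gaps of 750 to 1000 bp 7.89% of the 38 members and 25.8% of the 163 comparison regions. In these 2 longest classes the nearer TSS was a median of 135 bp and 115 bp from members. Summits in long gaps thus lay near one of the 2 TSSs, and those in gaps of 200 to 299 bp lay nearer to the centre, a median of 38.2 bp from the middle and 86 bp from the nearer TSS at members.

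**Figure D3:**
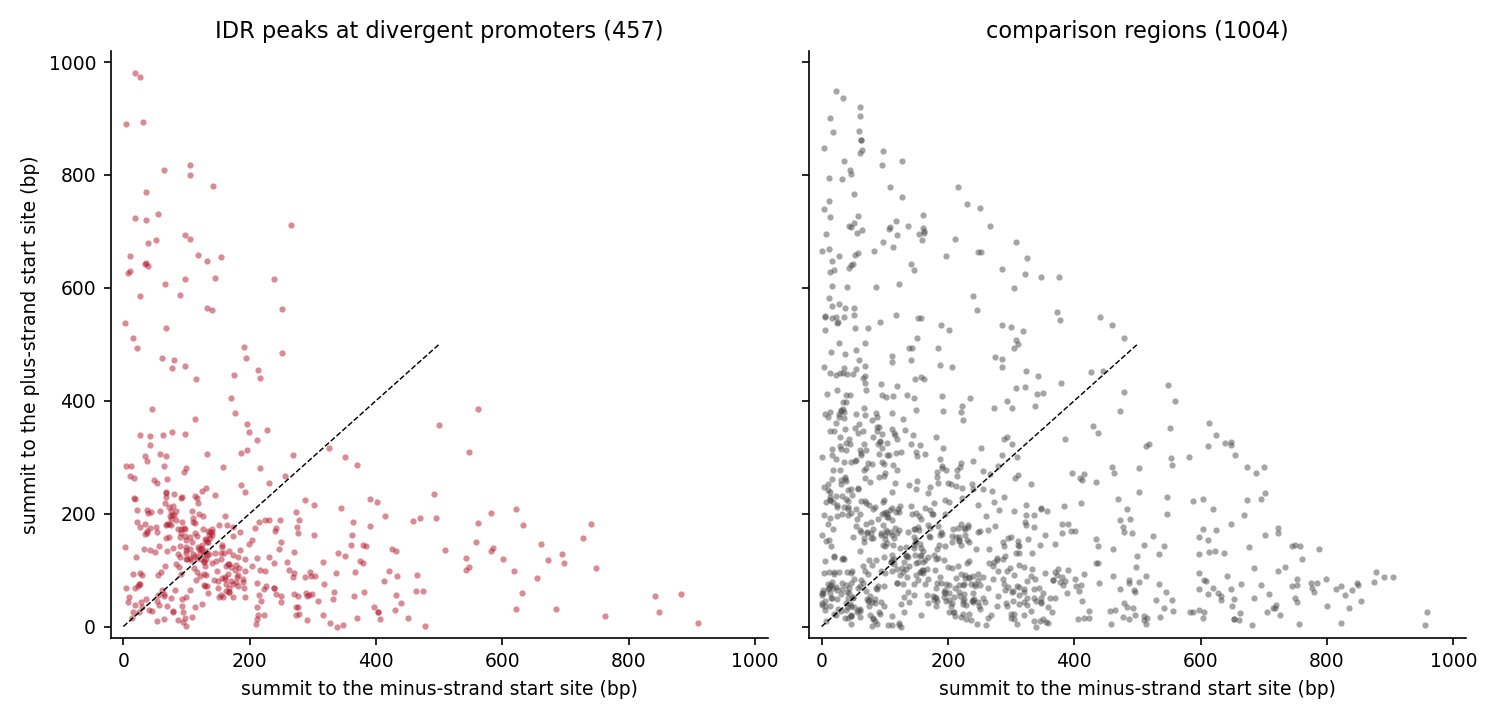
Distance of each summit from the minus-strand start site (horizontal, bp) and from the plus-strand start site (vertical, bp), for the 457 IDR peaks at divergent promoters on the left and the 1004 comparison regions on the right. Along the dashed line both distances are equal. Members crowd around it where both distances are 50 to 200 bp, and in long gaps they lie along the axes.

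Divergent pairs with a cytoplasmic ribosomal protein gene held a member far more often than other pairs. The annotation has 2525 divergent pairs of protein-coding genes with TSSs at most 1000 bp apart, of which 1320 had a pooled candidate and 445 had a member (33.7%). Members lay beside 889 different genes. Of the 49 pairs with a candidate and a ribosomal protein gene, 36 had a member (73.5%, 59.7 to 83.8). The difference from all other such pairs was 41.3 percentage points (27.3 to 51.9), with 49.5 points in replicate 2 alone and 46.3 in replicate 3 alone. Pooled signal at the 40 members of these pairs ran from 77.2 to 447, with a median of 153, against 106 at the other 417 members. Replicate 2 gave them a median of 85.1 and replicate 3 75.7, against 53.3 and 52.9 at the other members.

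The strongest of them lay at RpS27/Nup37, already named, with 224 in replicate 2 and 223 in replicate 3, and at Ripalpha/RpL7, with 167 in replicate 2 and 219 in replicate 3. Ripalpha encodes a protein that binds the replication protein RPA, and the summit lay 61 bp from its TSS and 65 bp from that of RpL7. At RpL34b/CG8132 the pooled signal was 292, with 99.1 in replicate 2 and 194 in replicate 3. Nelf-E/RpL14 followed with 290.1, with 150.5 in replicate 2 and 139 in replicate 3, where Nelf-E is a subunit of the factor that pauses RNA polymerase II. The replicates gave RpS27/Nup37 and Nelf-E/RpL14 nearly equal values, while RpL34b/CG8132 (log2 ratio 0.97) and Ripalpha/RpL7 (0.39) had more in replicate 3.

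Summits at these pairs lay by the ribosomal protein gene rather than by its partner. The TSS of the ribosomal protein gene was the nearer one at 33 of the 40 members, and a median of 48.5 bp away, against 293 bp for the partner's TSS. At the 17 comparison regions of such pairs it was the nearer one at 6, with medians of 233 bp and 149 bp. Comparison regions could not overlap a peak, so at a pair that also had a member they could not share that member's place. The contrast is limited by this rule. The summit was 1 bp from RpL31, 3 bp from RpS27, 5 bp from RpL36 and 6 bp from RpL8 and from RpS21. At RpL34a/Trmt61, Sgf29/RpL29 and Dref/RpL13 the partner's TSS was nearer, at 61, 27 and 36 bp, against 168, 95 and 48 bp for the ribosomal protein gene. Dref encodes the protein that binds the DRE, and no DRE lay within 100 bp of the summit in its own shared promoter. The pairs with a candidate and no member, 13 in all, included RpS13/CSN8, RpL5/CG17490, CG3702/RpL40 and Adk2/RpS12.

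No other gene list stood apart from the overall share beyond its interval, and most of these intervals are wide. Of 40 pairs with a mitochondrial ribosomal protein gene and a candidate, 13 had a member (32.5%, 20.1 to 48.0), although 3 of these members were among the 6 strongest. Their median signal was 98.4, and the listed gene had the nearer TSS at 5 of the 13. Members lay at 9 of 21 pairs with a respiratory chain or ATP synthase gene (42.9%, 24.5 to 63.5), among them TppII/ND-MWFE (239.6), ND-ASHI/Fum1 (222), glo/COX5A (176) and corolla/ND-24 (144). At ND-ASHI/Fum1 a subunit gene of complex I faces that of fumarase, an enzyme of the citric acid cycle, and the summit lay 256 and 266 bp from their TSSs. Translation factor genes had a member at 7 of 13 pairs (53.8%, 29.1 to 76.8), with RpL28/eIF1 (226), ppk29/eEF5 (146) and CCHa1-R/eIF3c (130.2) after eIF2Bbeta.

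Genes of aminoacyl-tRNA synthetases, which load tRNAs, had a member at 6 of 12 pairs, led by SerRS/CG17260 (185) and Hem/IleRS (142). Nuclear pore genes had one at 5 of 12, with Nup98-96/mbc (141) and Csl4/Nup160 (112) after Nup37. Splicing genes had one at 5 of 12, led by SF2/pad (115) and snRNP-U1-C/gukh (109). Proteasome genes had one at 3 of 15, at Hat1/Rpn5 (242), l(2)37Bb/Rpn3 (118) and Rpn6/ave (79.9). Genes of RNA polymerases, Mediator and TFIID had one at 8 of 29, with CG4297/MED15 (263), MED30/Rev1 (189) and elm/MED27 (161). Chromatin genes had one at 9 of 26, with Cp190/CG4338 (201.4) and ball/His2Av (143) after Chro. Cp190 encodes an insulator cofactor and His2Av the histone variant H2A.Z. The intervals of all of these lists include the overall 33.7%.

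Vesicle traffic genes had a member at 13 of 43 pairs (30.2%), with Fur1/Vps33B (265) and Sec61alpha/Daxx (158). Chaperone genes had one at 3 of 10, led by CG14965/Hsp83 (228), and replication genes at 3 of 10, with dpa/didum (153), CG13933/PolD2 (109) and RPA1/Mcm2 (79.8). Cell cycle genes had one at 5 of 14, led by CG3281/aurA (96.8), and mitochondrial import genes at 1 of 3, at CG33199/Tom7 (146). Developmental regulators, the genes nearest to the known role of disco-r, could hardly be compared here. Of the 87 on the list only 4 have a divergent partner, 2 of these pairs had a candidate and neither had a member.

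A listed gene stood beside 119 of the 457 members, and at 8 pairs both genes were on a list. Neither count was made for comparison regions, so nothing is read from them about members. The 8 pairs were RpS27/Nup37, RpL28/eIF1, Dref/RpL13 (130.5), RpL9/Nup154 (105), Cdk1/mRpS7 (80.3), RPA1/Mcm2, ATPsynCF6/Sec13 (77.8) and Su(var)2-HP2/Sec61beta. At RPA1/Mcm2 the single-strand binding protein and a subunit of the replicative helicase share a promoter. The signal was 45.4 in replicate 2 and 38.8 in replicate 3, and the summit lay 420 bp from RPA1 and 99 bp from Mcm2. Their signal ran from 73.0 to 447, and 9 members of other pairs were stronger than the highest of them.

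At 12 gene pairs 2 members were called, and at 8 of these the 2 summits were 199 to 207 bp apart. Among these 8 were RpS27/Nup37, CG32022/CG6511 (297 and 117), Fur1/Vps33B (265 and 107), CG10747/Pyroxd1 (236 and 77.0), RpS5a/Chchd2 (199.7 and 77.2), Alh/CG10098 (116 and 77.2) and SF2/pad (115 and 77.6). Most regions in the authors' lists are 400 bp wide, so these summits lie one region's radius apart, and at 6 of the 12 pairs both members matched the same candidate of replicate 2. Whether they are separate sites was not tested. At l(1)G0320/RpS28b (170 and 78.1) the summits were 783 bp apart, the stronger one 25 bp from RpS28b and the weaker one 65 bp from l(1)G0320. At Ac78C/chb (162 and 97.5) they were 636 bp apart and at hts/CalpA (93.9 and 82.7) 929 bp. At Elp6/Dic1 (151 and 106) they were 2485 bp apart, by different annotated TSSs of the same genes.

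Members were scarcer on the X chromosome than comparison regions, unlike peaks at other positions. X held 47 members (10.3%, 7.8 to 13.4) and 176 comparison regions (17.5%, 15.3 to 20), a difference of -7.25 points (-10.7 to -3.41). Of the other promoter peaks X held 19.4% and of the peaks elsewhere 21.2%. Arm 2L held 99 members (21.7%, 18.1 to 25.7) and 145 comparison regions (14.4%, 12.4 to 16.7), while 2R, 3L and 3R held shares of both that differed by less than 1 point. On chromosome 4 there were 0 of 457 members and 7 comparison regions (0.697%). A count of 0 allows a share of members of up to 0.656% by a floor of 3 counts and 0.834% by the Wilson interval, so no difference is read from it. Counted by gene pairs, 45 X-linked pairs had a member, 22.4% of those with a candidate (17.2 to 28.6), against 42.2% on 2L, 34.8% on 2R, 33.5% on 3L and 34.5% on 3R.

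The deficit at divergent positions held in each replicate. Among divergent candidates of the pooled list 20.5% were IDR peaks on X and 31.5% on the autosomes, a difference of -11.0 points (-16.3 to -4.76). At other promoters the same difference was 2.98 points (0.792 to 5.40) and elsewhere 2.94 points (1.99 to 3.99), so the intervals at divergent and at other positions do not meet. With the strongest 2334 candidates of replicate 2 the difference at divergent positions was -10.3 points (-15.6 to -4.21), and with those of replicate 3 it was -12.4 points (-18.2 to -5.85). Elsewhere these candidates were more frequent on X in both, by 1.61 points (0.741 to 2.56) in replicate 2 and by 3.35 points (2.42 to 4.38) in replicate 3. At other promoters the excess on X did not hold in the replicates, with 1.93 points (-0.110 to 4.19) in replicate 2 and 2.37 points (-0.119 to 5.12) in replicate 3. The median pooled signal of divergent candidates was 43.5 on X and 50.7 on the autosomes. The members that did lie on X had a median pooled signal of 107, as did all members. The cut on signal had chosen them, so these medians cannot compare strength on X with that on the autosomes. Members on X included Ugalt/eIF2Bbeta, Stt3A/bves, ND-ASHI/Fum1, IntS6/Rtel1 (207) and RpS5a/Chchd2.

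**Figure D4:**
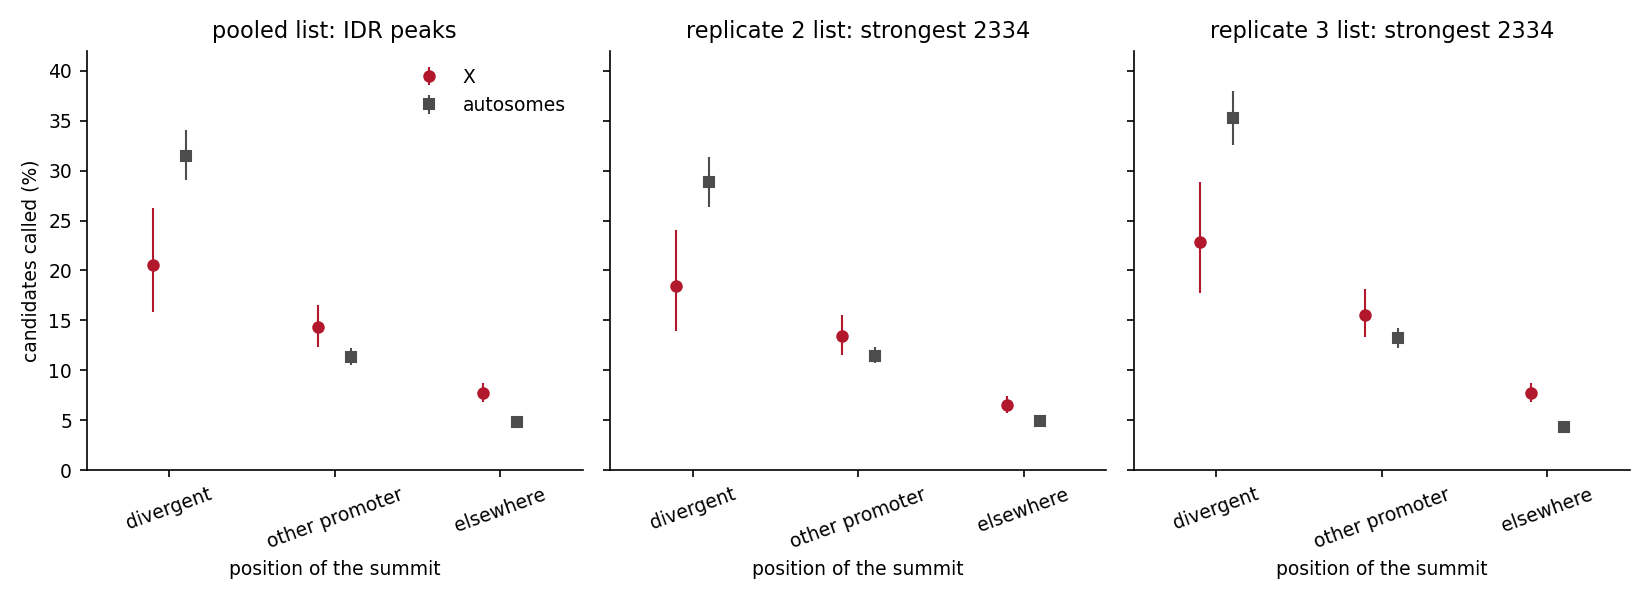
Share of candidates called (%, points with 95% Wilson intervals) on X and on the autosomes by position of the summit, for the IDR peaks of the pooled list and for the strongest 2334 candidates of each replicate. At divergent positions X lies below the autosomes in all 3 panels (20.5% and 31.5% in the pooled list), and elsewhere it lies above them.

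The base composition at members was low in G and C, as it was at comparison regions. Within 100 bp of the summit, the median G and C content was 35.8% at members (35.3 to 36.8) and 36.8% at comparison regions (36.3 to 36.8), and the interval of the difference, -1.49 to 0.117 points, includes 0. The median was 38.8% (37.8 to 39.3) at the other promoter peaks, 36.8% (35.8 to 36.8) at the peaks elsewhere, and 43.3% over all pooled candidates. Low G and C content was thus shared by peaks away from promoters. Within 50 bp of the summit the difference between members and comparison regions widened to -2.97 points (-5.18 to -0.756).

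Words of housekeeping promoters were frequent at members, about as frequent at comparison regions, and rarer at other promoter peaks. They were searched on both strands within 100 bp of the summit, and a match is a description of the letters and not a site. At least 1 of DRE, M1BP, Ohler motif 6, Ohler motif 7 and the E-box CAGCTG was found at 50.3% of members (45.8 to 54.9), 51.6% of comparison regions (48.5 to 54.7) and 33.9% of other promoter peaks (30.6 to 37.4). The shorter BEAF-32 word CGATA, part of the DRE, was found at 211 members (46.2%), at 51.0% of comparison regions, at 32.3% of other promoter peaks and at 23.5% of all pooled candidates. The DRE, TATCGATA, was found at 50 members (10.9%), at 13.8% of comparison regions, at 4.88% of other promoter peaks and at 1.79% of all candidates. Ohler motif 7, CANCNCTA, was found at 106 members (23.2%), at 19.1% of comparison regions, at 12% of other promoter peaks and at 6.58% of all candidates.

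Set against other promoter peaks, members had more of the BEAF-32 word (13.8 points, 8.19 to 19.5), of Ohler motif 7 (11.2, 6.77 to 15.8), of the TATA box word TATAAA (10.8, 5.42 to 16.2) and of the DRE (6.06, 2.96 to 9.52). They had less of GAGAGAG, the word of GAGA factor, at 5 members (1.09%) against 55 other promoter peaks (7.26%), a difference of -6.16 points (-8.32 to -3.98). Matches of the CTCF core AGNNGGCGC did not differ beyond their intervals, at 1.97% of members and 3.56% of other promoter peaks. The same held for Ohler motif 6, GTATNTTT, at 12% and 9.10%, and for the initiator word TCAGT, at 33.5% and 36.0%.

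**Figure D5:**
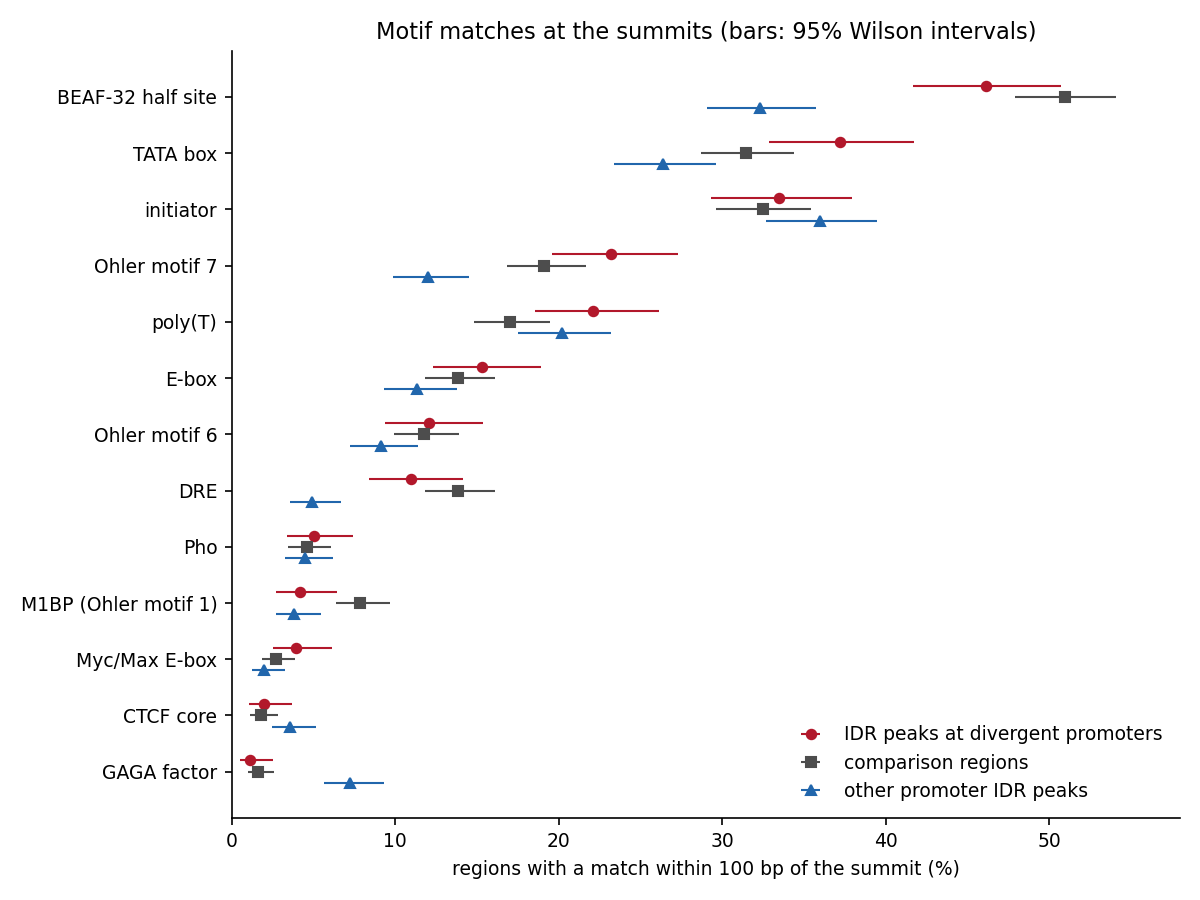
Share of regions with a match within 100 bp of the summit (%, points with 95% Wilson intervals) for IDR peaks at divergent promoters, comparison regions and other promoter IDR peaks. For the BEAF-32 word, the DRE, Ohler motif 7 and GAGA factor, members lie close to comparison regions and apart from other promoter peaks.

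Between members and comparison regions few words differed. Of 18 motifs, 3 were more frequent at members with an interval above 0: TATAAA (37.2% against 31.5%), runs of 7 T (22.1% against 17.0%) and the CRE word TGACGTCA (5 members against 2 comparison regions). The M1BP word GGTCACAC was less frequent, at 4.16% of members and 7.87% of comparison regions, a difference of -3.71 points (-6.07 to -1.01). Each of these except poly(T) rested on the pooled list. With the strongest candidates of replicate 2 alone, the difference for TATAAA was 1.02 points (-4.33 to 6.55) and with those of replicate 3 alone 2.53 points (-2.73 to 7.90). With comparison regions weighted to the members' G and C content it was 4.63 points (-0.597 to 9.96). Its interval also included 0 with gaps up to 500 bp, with the nearer TSS within 200 bp and with 1 TSS per gene. The same held among IDR peaks above the median signal and within 50 bp of the summit, but not with gaps up to 2000 bp. For M1BP the difference was -2.70 points (-5.33 to 0.405) with replicate 2 alone and -2.54 points (-4.91 to 0.109) with replicate 3 alone, and for CRE both intervals reached below 0. For poly(T) it was 4.55 points (0.134 to 9.30) with replicate 2 alone and 5.47 points (1.09 to 10.1) with replicate 3 alone, but among IDR peaks above the median signal it was 4.07 points (-1.20 to 10.1). TATAAA and poly(T) were also more frequent at peaks of other positions than at candidates there that overlapped no peak, but those candidates were richer in G and C. The median G and C content was 38.8% at other promoter peaks and 44.8% at candidates there, and elsewhere 36.8% and 44.3%. The shares that follow were not weighted for it. TATAAA was found at 26.4% of other promoter peaks and 19.1% of candidates there that overlapped no peak, and elsewhere at 29.2% and 19.0%. For poly(T) these shares were 20.2% and 15.7% at other promoters, and 25.5% and 15.7% elsewhere.

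All words of 6 letters, each joined with its reverse complement, gave a like picture, although the words named here were chosen on their values. The largest excess at members was that of AAGAAA, at 33.7% of members and 25.4% of comparison regions, and AGTTTA followed, at 23.6% and 15.6%. The largest deficit was that of TATCGA, at 27.8% of members and 35.1% of comparison regions, with 15.6% at other promoter peaks. The DRE contains this word, but the full DRE differed between members and comparison regions by -2.90 points (-6.32 to 0.864) and the BEAF-32 word by -4.83 points (-10.3 to 0.703), intervals that include 0.

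Members at ribosomal protein pairs differed in their words from the other members. The DRE was found at 13 of these 40 members (32.5%) and at 37 of the other 417 (8.87%), a difference of 23.6 points (10.8 to 39.3). The BEAF-32 word was found at 28 (70.0%) and at 183 (43.9%), a difference of 26.1 points (9.96 to 38.9). TATAAA went the other way, at 7 (17.5%) and at 163 (39.1%), with -21.6 points (-31.6 to -6.44), and so did the initiator word, with -17.5 points (-27.4 to -2.40). Examples with a full DRE were RpL19, RpS25, RpL41, RpL28 and RpL26, whereas no word searched was found at RpL13A, RpS18 or RpL9. Leaving these pairs out of both sides, a setting added after seeing the data, TATAAA was found more often at members than at comparison regions by 7.78 points (2.34 to 13.3). In that setting the DRE (-4.50 points, -7.78 to -0.806) and the BEAF-32 word (-6.87 points, -12.5 to -1.15) were found less often at members.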

How the data were processed

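The authors deposited candidate lists per replicate and pooled, derived from alignments and 1 control file, and the list thresholded by IDR, with a peak caller's signal value per region whose scale is not stated (per the notes deposited with the files). For aligner, caller and IDR threshold, the sources used here give no name or value. The dm6 lists were used and the dm3 lists were not. Summits are the deposited start plus offset. TSSs are the 5′ ends of all protein-coding transcripts in Ensembl release 115, the first on each side of a summit. Sequence came from RefSeq's Release 6 genome. Scripts ran in Python 3.11.15 with numpy 2.4.6, pandas 2.3.3 and scipy 1.17.1 and were tested on simulated data. Intervals are 95% Wilson (shares), Newcombe (differences of shares) or order-statistic intervals (medians), and cover counting error only. No p-value is given, since regions are not replicates.

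The named pairs are the 20 strongest and 5 weakest members, the 5 strongest comparison regions, pairs with 2 members, up to 4 per gene list, and the extremes between replicates. Further ribosomal protein pairs, pairs with both genes listed and IntS6/Rtel1 were named after their values had been seen. A few pairs that these rules select are not reported here. Members, gene lists and motifs were chosen with earlier results of these data known, among them the frequency of peaks at ribosomal protein genes and on X. Alternatives changed the position rule, the TSSs, the peak list, the window and the overlap.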

Additional observations from a re-analysis of the deposited data

How the results depend on the processing

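The number of members was 243 with IDR peaks above the median signal. Members made up 14.6% of IDR peaks with gaps up to 500 bp, 23.9% with gaps up to 2000 bp, 13.9% with 1 TSS per gene, and 17.4 to 20.4% in one replicate alone. The median distance from the middle of the gap was 43.75 bp with gaps up to 500 bp and 86.5 bp up to 2000 bp. The difference in gap length was -28 bp with gaps up to 500 bp, -211.5 bp up to 2000 bp, and -90 to -66.5 bp in one replicate alone. The share on X differed by -10.9 points with gaps up to 500 bp and -4.40 points (-7.60 to -0.874) up to 2000 bp. The G and C content differed by -2.97 points within 50 bp. The share of pairs with a member was 20.8% above the median signal, 17.6% of all annotated pairs, and 31.0 to 37.5% in one replicate alone. Motifs more frequent at members numbered 1 with 1 TSS per gene, 1 above the median signal, and 1 to 4 in one replicate alone. Motifs less frequent numbered 0 with gaps up to 2000 bp, 3 with the nearer TSS within 200 bp, 2 above the median signal, 3 within 50 bp, 3 without ribosomal protein pairs, and 0 to 1 in one replicate alone. The cause of these shifts was not tested, apart from the gap limits, which bound the gaps by construction. The alternatives for gap, X share and ribosomal protein pairs, and those without X or without ribosomal protein pairs, were added after seeing the data. Among the differences that were rerun, none with an interval that excludes 0 changed direction. The word differences from other promoter peaks, and those between members at ribosomal protein pairs and other members, were not rerun in any alternative. Shares of summits by distance from a TSS were not rerun either. The difference in the share of pairs with a member, between ribosomal protein pairs and other pairs, stayed between 28.8 and 49.5 points. With unknown depth, absence of a peak does not show absence of binding. No paired analysis was possible because there is 1 group and no contrast.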

Other observations

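Of the 1004 comparison regions, 2 stood among the strongest 2334 candidates of both replicates without passing IDR. One of them is named here, after its values were seen. At chic/eIF4A, the genes of the actin-binding protein profilin and of a translation initiation helicase, it was 47.1 in replicate 2 and 42.6 in replicate 3, with the summit 20 bp from the TSS of eIF4A and 726 bp from that of chic. Its pooled value of 69.98 lay just under the lowest IDR peak, at 72.5.

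Conversely, 2 members had no candidate in 1 replicate that overlapped them by 50%. CG4049/CG3253 had a pooled signal of 195 and 55.3 in replicate 2, and CG13185/cuff, where cuff encodes a protein of the germline piRNA pathway, had 104 and 44.8 in replicate 3.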
